A study of Rattus norvegicus with 25 samples.

Results

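The fatty acid desaturases and elongases were examined through 7 genes, Fads1, Fads2, Scd, Elovl1, Elovl2, Elovl5 and Elovl6. All probe sets annotated with exactly 1 of these symbols were taken, which gave 9 probe sets of the 31042 tested and 7 genes of the 14217 that had such a probe set. Elovl5 and Elovl6 were each read by 2 probe sets, which are called brighter and dimmer here after their mean signal, and no filter on low signals was applied, so that all 9 were tested. The values are log2 signals, on which a difference of 1 is a doubling.

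The samples were 25 Affymetrix rat genome arrays from 7 stably transfected lines derived from McArdle-RH7777, rat hepatoma cells that release lipoproteins carrying apoB. The control group held 2 lines, with 2 and 3 arrays, and the legends of the study call such cells empty vector controls. For Sar1A there was 1 line with 4 arrays, while Sar1B and Sar1B:H79G were each represented by 2 lines of 4 arrays. Sar1A and Sar1B are the paralogous GTPases that start the COPII coat of vesicles leaving the endoplasmic reticulum, and H79G is a GTP-restricted form that does not complete GTP hydrolysis. The constructs encoded the human proteins with a FLAG tag under a tetracycline-regulated vector, each line was grown from a picked clone, all lines were kept in blasticidin and Zeocin, and all, controls included, received 1 µg/ml tetracycline for 24 h. The level of the human constructs was not checked here.

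Desaturases place double bonds in fatty acyl chains at the endoplasmic reticulum, and elongases of the ELOVL family catalyse the first, condensing step by which the chains grow. Stearoyl-CoA desaturase (Scd) makes oleate and palmitoleate from saturated chains, and Elovl6 lengthens palmitate to stearate. Fads2 and Fads1 are the earlier and the later desaturase on the route from the dietary essential fatty acids to arachidonate and docosahexaenoate, with Elovl5 and Elovl2 as the elongases of that route, whereas Elovl1 acts on saturated and monounsaturated very long chains. In liver, several of these genes are known targets of the sterol regulatory element-binding proteins (SREBPs) and of the liver X receptors.

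Arrays of a line were averaged because the methods describe them as technical replicates, and limma was run on the 7 line means with a coefficient per group. A probe set was called at a Benjamini-Hochberg adjusted p under 0.05 over all 31042 probe sets, and each standard error (SE) is that of the fit. All control arrays belong to 1 array series and all others to another, so that for each comparison with control the construct and the array series cannot be told apart, whereas comparisons among the Sar1A, Sar1B and Sar1B:H79G lines lie within 1 series. The 5′ signal minus the 3′ signal of the spiked-in poly-A transcripts was -1.63 and -1.74 in the control lines and -0.84 to -0.76 in the others, and that of β-actin was -0.81 and -0.94 in control, -0.61 in Sar1A, -0.50 and -0.49 in Sar1B and -0.71 and -0.63 in Sar1B:H79G. Hepatocyte markers lay between 8.16 and 14.28, led by Afp, and all 11 measured were above the median probe set at 8.13, whereas 11 markers of macrophages, endothelium, stellate cells or fibroblasts, and cholangiocytes had a median of 7.29, with 2 above that level.

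The desaturases Fads1, Fads2 and Scd were each lower in the Sar1B:H79G lines than in each of the other groups. Fads1 was lower 5.34-fold against control, 6.62-fold against Sar1B and 6.09-fold against Sar1A, and Scd 3.52-fold, 5.27-fold and 4.35-fold. Fads2 was lower by less, 1.93-fold, 1.71-fold and 2.19-fold. These 3 contrasts share the same Sar1B:H79G arrays, so that they are not independent of each other, and because an array reads the RNA of a whole culture, fewer expressing cells and less RNA per cell cannot be told apart.

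The Fads1 arrays read 12.29 and 12.22 in control line 1 and 12.09, 12.11 and 12.05 in control line 2. In the Sar1B:H79G group they read 9.97, 10.18, 9.75 and 9.76 in line 1 and 9.54, 9.57, 9.57 and 9.68 in line 2. The 8 Sar1B arrays ranged from 12.24 to 12.80 with a median of 12.41, and the 4 Sar1A arrays read 12.49, 12.30, 12.30 and 12.35. Every Sar1B:H79G array was thus below every array of the other groups, with a gap wider than the whole range of the other groups. The mean of the lines was 9.75 ± 0.23 (SD, n = 2 lines) in Sar1B:H79G, 12.17 ± 0.12 (SD, n = 2) in control, 12.48 ± 0.29 (SD, n = 2) in Sar1B and 12.36 in the single Sar1A line. The log2 fold change was -2.42 (SE 0.17, adjusted p = 0.0011) against control, -2.73 (SE 0.17, adjusted p = 0.0019) against Sar1B and -2.61 (SE 0.20, adjusted p = 0.0075) against Sar1A. The last call was lost when only the Sar1B:H79G and Sar1A lines were fitted. No probe set of the array was called in that fit, so the loss is not particular to Fads1.

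Scd read 11.58 and 11.59 in control line 1, and 11.49, 11.32 and 11.27 in control line 2. The Sar1B:H79G arrays read 9.96, 10.11, 9.88 and 9.83 in line 1, and 9.22, 9.36, 9.45 and 9.46 in line 2. Both Sar1B:H79G lines were below all other arrays, and line 2 lay below line 1 with no overlap, at line means of 9.37 and 9.95. The 8 Sar1B arrays ranged from 11.67 to 12.28 with a median of 12.09, above all 5 control arrays, and the Sar1A arrays read 12.05, 11.63, 11.76 and 11.67. The log2 fold change of Scd in Sar1B:H79G was -1.81 (SE 0.20, adjusted p = 0.0033) against control, -2.40 (SE 0.20, adjusted p = 0.003) against Sar1B and -2.12 (SE 0.24, adjusted p = 0.014) against Sar1A. Against Sar1A it no longer passed with either control line left out, or when only those groups were fitted, where no probe set of the array passed.

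Fads2 read 9.56 and 9.64 in control line 1 and 9.47, 9.49 and 9.34 in control line 2. The 8 Sar1B:H79G arrays ranged from 8.39 to 8.68 with a median of 8.59, below every other array. Among the remaining lines Fads2 was not uniform, since Sar1B line 1 read 9.15, 9.07, 9.10 and 9.16 and Sar1B line 2 read 9.58, 9.49, 9.58 and 9.57, a gap of 0.43 between clones of 1 group. The log2 fold change in Sar1B:H79G was -0.95 (SE 0.15, adjusted p = 0.0094) against control, -0.77 (SE 0.15, adjusted p = 0.03) against Sar1B and -1.13 (SE 0.18, adjusted p = 0.035) against Sar1A. Leaving out control line 1 or 2 ended the first of these calls (adjusted p = 0.055 and 0.063). That against Sar1B was lost without either control line, Sar1B line 2 or either Sar1B:H79G line. That against Sar1A was lost without either control line or either Sar1B:H79G line. The control lines are in neither of these 2 comparisons and enter only through the shared estimate of the spread. Both calls were also lost when only the groups compared were fitted (adjusted p = 0.081 against Sar1B), and against Sar1A that fit called no probe set at all.

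**Figure D1:**
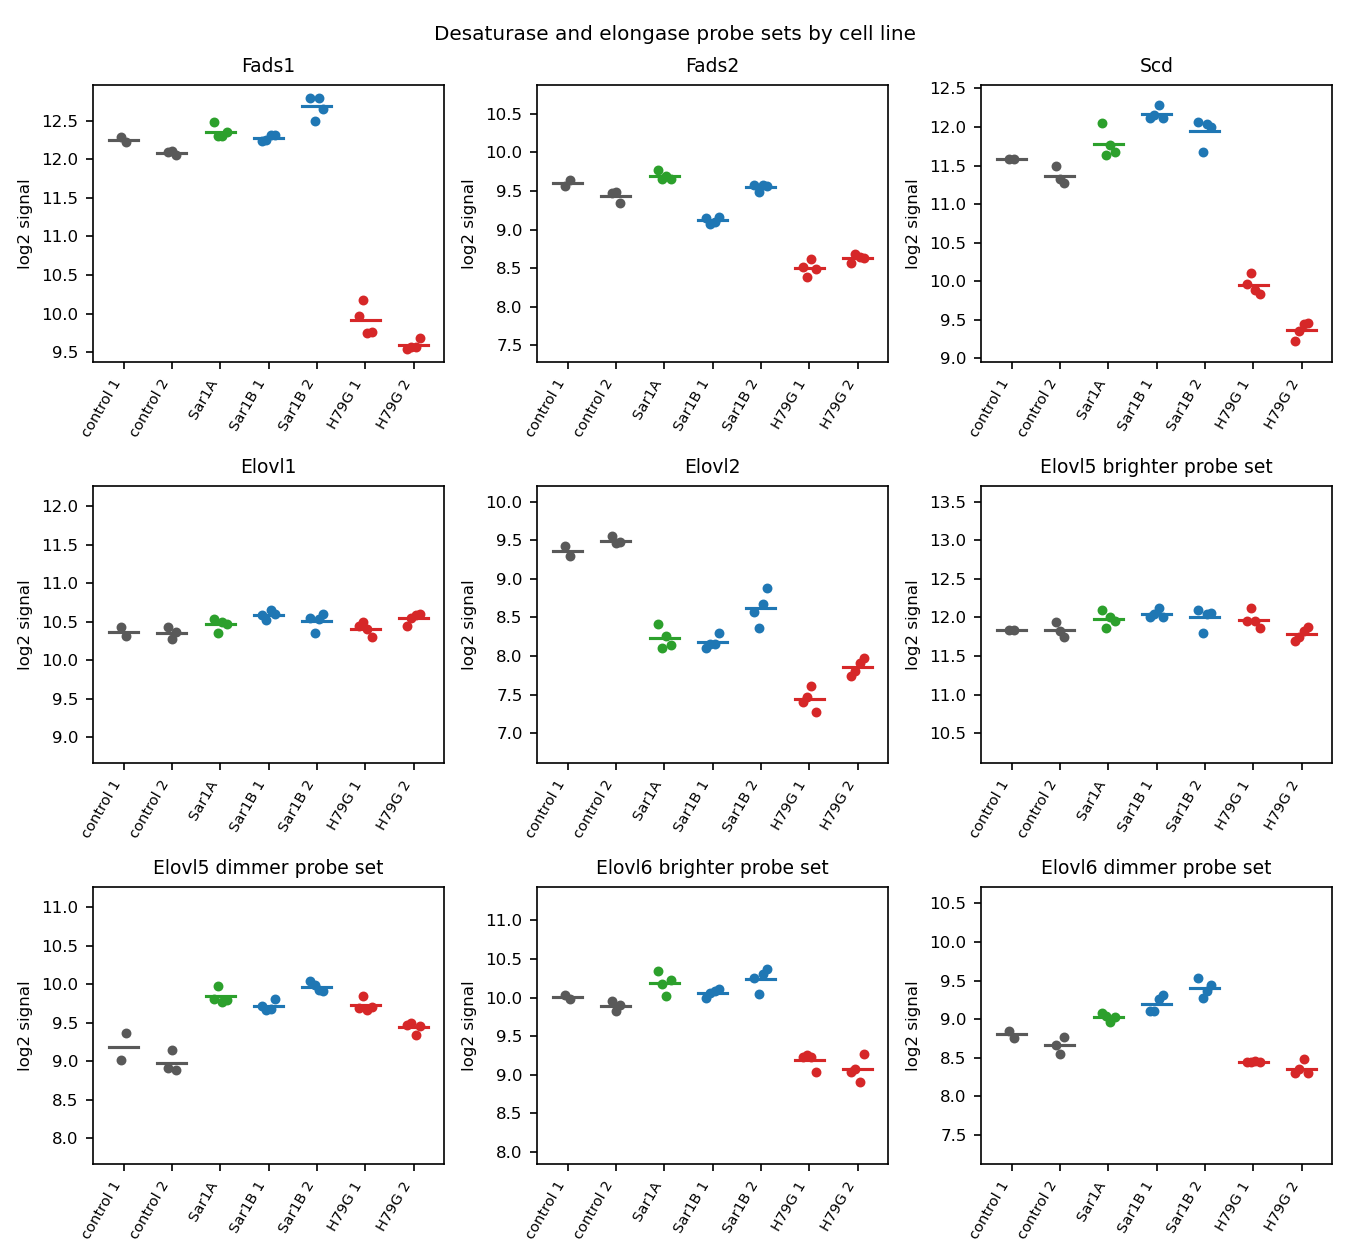
Log2 signal (vertical axis, of the same height in each panel) of the 9 probe sets in each of the 7 cell lines (horizontal axis), with 1 point per array and a bar at the mean of each line. The Sar1B:H79G arrays of Fads1, between 9.54 and 10.18, and of Scd, between 9.22 and 10.11, sit below all other arrays, whereas those of Elovl1 lie among the rest.

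The sequences before the start sites of the 3 desaturases that fell together, and of Elovl5, which was called lower in no comparison, are shown so that they can be set beside these values. The windows of 250 bases upstream of the RefSeq start come from the rat build GRCr8, are written 5′ to 3′ on the strand of the gene, and lie at chr1:216252442-216252691 (plus strand) for Fads1, chr1:216172034-216172283 (minus strand) for Fads2, chr1:253231732-253231981 (minus strand) for Scd and chr8:87670914-87671163 (plus strand) for Elovl5. RefSeq windows were found for 6 of the 7 genes, with 2 windows for Elovl2 and none matched for Elovl6. Capitals mark matches, on either strand, to 4 motifs, which were a sterol regulatory element of the form TCACNCCAC, the CCAAT box bound by nuclear factor Y, the GGGCGG box bound by Sp1 and the CACGTG E-box.
Fads1: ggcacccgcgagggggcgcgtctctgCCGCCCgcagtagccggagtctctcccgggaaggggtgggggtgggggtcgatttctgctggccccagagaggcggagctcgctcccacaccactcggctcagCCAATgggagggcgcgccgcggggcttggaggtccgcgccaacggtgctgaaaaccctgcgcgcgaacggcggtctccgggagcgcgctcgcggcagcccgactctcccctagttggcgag
Fads2: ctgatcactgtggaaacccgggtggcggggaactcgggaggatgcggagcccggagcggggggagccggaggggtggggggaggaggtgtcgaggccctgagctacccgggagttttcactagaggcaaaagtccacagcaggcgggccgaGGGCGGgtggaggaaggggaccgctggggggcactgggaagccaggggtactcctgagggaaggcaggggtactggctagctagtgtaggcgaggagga
Scd: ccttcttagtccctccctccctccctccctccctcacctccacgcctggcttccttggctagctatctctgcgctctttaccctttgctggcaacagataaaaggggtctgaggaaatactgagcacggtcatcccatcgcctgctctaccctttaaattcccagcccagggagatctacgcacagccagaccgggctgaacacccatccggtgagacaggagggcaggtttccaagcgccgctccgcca
Elovl5: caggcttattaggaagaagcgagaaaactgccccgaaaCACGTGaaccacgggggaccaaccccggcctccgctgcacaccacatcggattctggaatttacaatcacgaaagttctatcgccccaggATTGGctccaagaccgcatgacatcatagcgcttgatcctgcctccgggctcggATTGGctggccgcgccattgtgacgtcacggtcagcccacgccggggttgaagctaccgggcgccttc

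Fads1 held 1 CCAAT box, whose first letter was 121 bases before the start, and 1 GGGCGG box, and Fads2 held 1 GGGCGG box. In Scd none of the 4 motifs was matched in this window, while Elovl5 held 2 CCAAT boxes, on the opposite strand, and 1 CACGTG. The first Elovl2 window held 7 GGGCGG boxes and the second 1, and Elovl1 held none of the motifs. The motifs are frequent in such windows in general, since of all 33469 windows of the same length 34% held CCAAT, 30.5% GGGCGG and 5.59% CACGTG, whereas TCACNCCAC was in 0.974% and in none of the 6 genes.  Matches are a description of these letters only.

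Among the elongases, Elovl6 and Elovl2 were lower in Sar1B:H79G than in control, but their patterns over the other groups were unlike each other. Elovl6 was lower than in each of the 3 other groups on its brighter probe set, 1.77-fold against control, 2.03-fold against Sar1B and 2.09-fold against Sar1A. Elovl2 was 3.43-fold lower than in control, and in this comparison with the other array series the Sar1B lines were also 2.04-fold lower. Elovl1 and the brighter Elovl5 probe set were called in none of the 6 comparisons.

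The brighter Elovl6 probe set read 10.03 and 9.98 in control line 1 and 9.96, 9.83 and 9.90 in control line 2. The Sar1B:H79G arrays read 9.23, 9.26, 9.23 and 9.04 in line 1 and 9.03, 9.07, 8.91 and 9.27 in line 2. They were below all other arrays, of which the 8 of Sar1B ranged from 9.99 to 10.37 and the 4 of Sar1A from 10.02 to 10.35. The log2 fold change was -0.82 (SE 0.09, adjusted p = 0.0034) against control, -1.02 (SE 0.09, adjusted p = 0.0038) against Sar1B and -1.07 (SE 0.11, adjusted p = 0.012) against Sar1A. The dimmer probe set gave -0.33 (SE 0.10, adjusted p = 0.056), -0.90 (SE 0.10, adjusted p = 0.0059) and -0.62 (SE 0.12, adjusted p = 0.054), so that the probe sets shared their direction and differed in which comparison passed the threshold. With both probe sets averaged, the log2 fold change was -0.58, -0.96 and -0.84, each called (adjusted p = 0.011, 0.0046 and 0.021). When only the Sar1B:H79G and Sar1A lines were fitted, the brighter probe set was not called, and neither was any other probe set of the array.

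Elovl2 read 9.42 and 9.29 in control line 1 and 9.55, 9.46 and 9.48 in control line 2. The Sar1A arrays read 8.42, 8.11, 8.26 and 8.14, and the 8 Sar1B arrays ranged from 8.11 to 8.88 with a median of 8.33. The Sar1B:H79G arrays read 7.41, 7.47, 7.61 and 7.27 in line 1 and 7.74, 7.81, 7.91 and 7.97 in line 2. The arrays thus formed 3 levels, with control highest, Sar1A and Sar1B overlapping in the middle and Sar1B:H79G lowest. All Sar1B:H79G arrays were below the median probe set at 8.13, and whether background limits the measured fall was not tested. Against control, the log2 fold change was -1.78 (SE 0.19, adjusted p = 0.0032) in Sar1B:H79G, -1.03 (SE 0.19, adjusted p = 0.032) in Sar1B and -1.20 (SE 0.23, adjusted p = 0.066) in Sar1A. Within the series shared by the other lines, Sar1B:H79G differed from Sar1B by -0.75 (SE 0.19, adjusted p = 0.065) and from Sar1A by -0.58 (SE 0.23, adjusted p = 0.31), which did not pass the threshold. The former passed it without Sar1B line 1 (adjusted p = 0.043) or Sar1B:H79G line 2 (adjusted p = 0.044), and the call of Sar1B against control was lost without any 1 of the 4 lines compared (adjusted p from 0.051 to 0.20).

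The Elovl5 probe sets did not give 1 picture. On the brighter one the arrays overlapped between all groups, at 11.75 to 11.94 in control, 11.86 to 12.09 in Sar1A, 11.80 to 12.12 in Sar1B and 11.70 to 12.12 in Sar1B:H79G. The dimmer one read 9.02 and 9.36 in control line 1 and 8.91, 9.14 and 8.89 in control line 2, against 9.34 to 9.84 in Sar1B:H79G, 9.67 to 10.04 in Sar1B and 9.77 to 9.98 in Sar1A. Here control was lowest, and a single control array, at 9.36, reached into the Sar1B:H79G range. Against control, the dimmer probe set gave a log2 fold change of 0.50 in Sar1B:H79G (SE 0.14, adjusted p = 0.047), 0.75 in Sar1B (SE 0.14, adjusted p = 0.03) and 0.75 in Sar1A (SE 0.17, adjusted p = 0.082), while the brighter one gave 0.04, 0.19 and 0.14 (adjusted p = 0.73, 0.19 and 0.44). Within the series of the Sar1 lines, Sar1B:H79G differed from Sar1B by -0.26 on the dimmer (95% confidence interval -0.59 to 0.07) and -0.15 on the brighter probe set (-0.34 to 0.05). The calls of the dimmer probe set were lost in Sar1B:H79G when control line 1, control line 2 or the first Sar1B:H79G line was left out (adjusted p = 0.081, 0.23 and 0.17), and in Sar1B when any 1 of its own or the control lines was left out (adjusted p from 0.054 to 0.19).

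Elovl1 varied least among the members over the 7 lines (SD 0.089 of the line means), at 10.28 to 10.43 on the control arrays, 10.35 to 10.54 on those of Sar1A, 10.35 to 10.65 on those of Sar1B and 10.30 to 10.60 on those of Sar1B:H79G. The arrays of all groups overlapped. Its difference between Sar1B:H79G and Sar1B was -0.07 (95% confidence interval -0.25 to 0.11, adjusted p = 0.72), and a change within that interval would not be seen here.

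**Figure D2:**
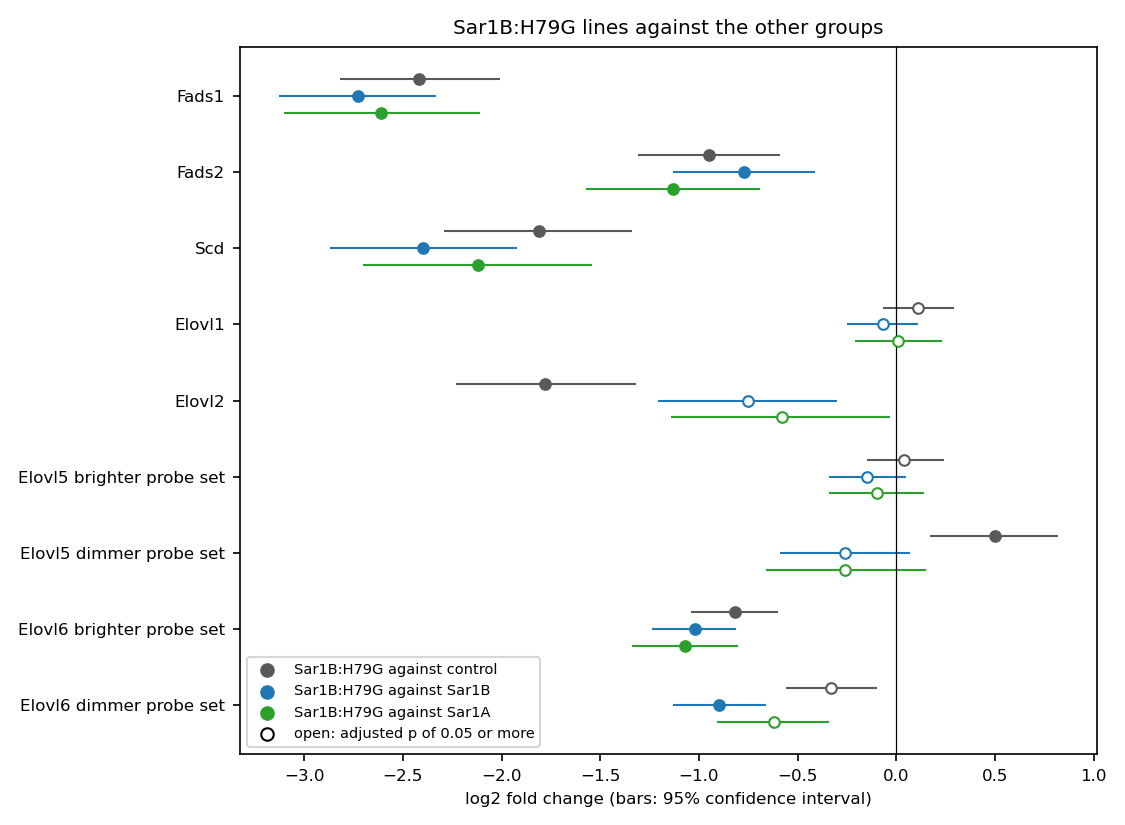
Log2 fold change (horizontal axis) of the Sar1B:H79G lines against control, Sar1B and Sar1A for the 9 probe sets (vertical axis), with bars for the 95% confidence interval of the limma fit. Filled points passed an adjusted p of 0.05, as did Fads1, Fads2, Scd and the brighter Elovl6 probe set in all 3 comparisons, while Elovl2 did so only against control, at -1.78.

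Counted over probe sets, 5 of 9 were lower and 1 was higher in Sar1B:H79G than in control, where 9.17% of all probe sets were called lower and 13.2% higher. Against Sar1B, 5 of 9 were lower, with 5.29% of all probe sets lower, and against Sar1A 4 of 9 were lower, with 1.63% lower. In their mean over the 25 arrays all 9 were brighter than the median probe set, and brighter probe sets were called more often. When the 15521 probe sets above the median were fitted alone, 1813 were lower against control, 1619 against Sar1B and 520 against Sar1A. The members had a median log2 fold change of -0.82, -0.77 and -0.62 in these comparisons, and all probe sets 0.03, 0.01 and 0.01. Since the members were chosen with earlier results known and share the same arrays, these counts describe them and carry no test.

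The lines with unmutated proteins were compared with control in the same way, and whether their counts differ from those of Sar1B:H79G was not tested. In Sar1B against control, 2 of 9 probe sets were higher (the dimmer probe sets of Elovl5 and Elovl6), where 6.28% of all were higher, and 1 was lower (Elovl2), where 2.01% were lower. The dimmer Elovl6 probe set read 9.10 to 9.54 in Sar1B and 8.55 to 8.85 in control, with a log2 fold change of 0.57 (SE 0.10, adjusted p = 0.027), which did not pass when control line 1, control line 2 or Sar1B line 2 was left out (adjusted p = 0.064, 0.17 and 0.098), and its brighter probe set gave 0.20 (adjusted p = 0.20). Scd was 0.58 above control on the log2 scale (95% confidence interval 0.11 to 1.06, adjusted p = 0.11), and Fads1 0.31 (-0.09 to 0.71, adjusted p = 0.27). In Sar1A against control 0 of 9 were called by limma, which called 1.18% of all probe sets in either direction, and 3 had an unadjusted p under 0.05. SAM on single arrays called 8 of 9 there, but also 52.3% of all probe sets. Between Sar1A and Sar1B 0 of 9 were called by limma, which called 0.00322% of all probe sets, and 0 had an unadjusted p under 0.05. The fit that took each array as a replicate called 2 of 9, and 10.3% of all probe sets. For Fads2 that difference was 0.36 (95% confidence interval -0.08 to 0.80, adjusted p = 0.90), although every Sar1A array lay above every Sar1B array.

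Clones of 1 group differed in the members by up to 0.57 on the log2 scale. In Sar1B:H79G, line 2 was below line 1 in 6 of 9 probe sets, from -0.57 for Scd to 0.42 for Elovl2, which was higher in line 2. In Sar1B the gaps of line 2 over line 1 ran from -0.23 for Scd to 0.44 for Elovl2, with Fads1 and Fads2 0.40 and 0.43 higher in line 2. The control lines differed by -0.23 to 0.14. All of these gaps are smaller than the differences of Fads1, Scd and the brighter Elovl6 probe set between Sar1B:H79G and the other groups.

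On rat chromosome 1, Fads3, Fads2 and Fads1 are neighbours, followed by Fen1, Tmem258 and Myrf, in the gene order of the GRCr8 annotation. This neighbourhood was added after values had been seen. Fads3, a relative of the desaturases that acts on sphingoid bases, was higher in Sar1B:H79G than in control by 0.55 (SE 0.14, adjusted p = 0.042) and differed from Sar1B by 0.13 (adjusted p = 0.73). Tmem258, a small subunit of the oligosaccharyltransferase complex, was higher by 0.56 (SE 0.08, adjusted p = 0.0078) against control and 0.59 (SE 0.08, adjusted p = 0.012) against Sar1B. Fen1, a DNA flap endonuclease, gave 0.32 and 0.36 (adjusted p = 0.067 and 0.088), Myrf -0.55 and -0.80 (0.12 and 0.084), and Rab3il1, on the other flank, 0.04 and -0.08 (0.73 and 0.64). Of the 7 genes measured in this stretch, Fads1 and Fads2 were called lower in both comparisons and Tmem258 higher in both.

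**Figure D3:**
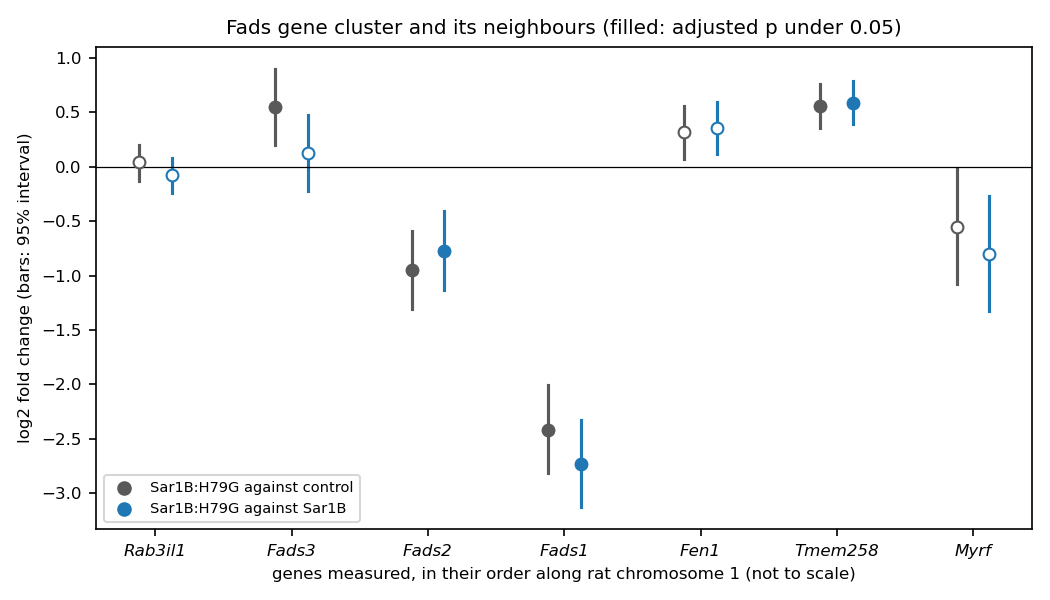
Log2 fold change (vertical axis) of the Sar1B:H79G lines against control and against Sar1B for 7 genes in their order along rat chromosome 1 (horizontal axis, not to scale), with bars for the 95% confidence interval and filled points for an adjusted p under 0.05. Fads2 and Fads1 are low, at -0.95 and -2.42 against control, between Fads3 at 0.55 and Fen1 at 0.32.

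Of the other desaturases and elongases, 5 of 10 listed genes were measured. Scd2, a stearoyl-CoA desaturase encoded near Scd, had line means of 13.49 and 13.21 in control, 13.79 and 13.74 in Sar1B, 13.90 in Sar1A and 12.73 and 12.13 in Sar1B:H79G. Both Sar1B:H79G lines were lowest, with line 2 below line 1 as for Scd. The log2 fold change was -0.92 (SE 0.20, adjusted p = 0.024) against control, -1.34 (SE 0.20, adjusted p = 0.014) against Sar1B and -1.47 (SE 0.24, adjusted p = 0.037) against Sar1A. Scd and Scd2 are close paralogs, and whether their probe sets read each other's transcripts was not tested. Degs1 and Degs2, which desaturate dihydroceramide, and Elovl3 were not called in these comparisons, with log2 fold changes against control of 0.09, -0.05 and 0.12.

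Desaturases take their electrons from cytochrome b5, and a chain is completed after condensation by a ketoreductase (Hsd17b12), a dehydratase (the Hacd family) and a final reductase. Of 13 such partners 10 were measured, and 2 were lower and 0 higher in Sar1B:H79G than in control, with a median of -0.19, beside 9.17% of all probe sets lower and 13.2% higher. On the log2 scale the difference was -0.71 for Hsd17b12 (SE 0.09, adjusted p = 0.0048) and -0.74 for Hacd2 (SE 0.10, adjusted p = 0.0054), which within the series of the Sar1 lines gave -0.36 against Sar1B and was not called (adjusted p = 0.082). Against Sar1B, 4 were lower and 0 higher, with a median of -0.43, beside 5.29% of all probe sets lower. These were Hsd17b12 at -0.82 (adjusted p = 0.0059), Cyb5b at -0.77 (0.0044), Hacd1 at -0.75 (0.026) and Cyb5a, the cytochrome b5 of the endoplasmic reticulum, at -0.63 (0.013). Against Sar1A, 2 were lower, beside 1.63% of all, of which Cyb5a gave -1.11 (SE 0.11, adjusted p = 0.011). In Sar1B:H79G against control, Cyb5b, Hacd1 and Cyb5a gave -0.21, -0.42 and -0.18 and were not called (adjusted p = 0.087, 0.074 and 0.2). Cyb5a was also higher than control in Sar1B, by 0.45 (adjusted p = 0.04), and in the Sar1A line, by 0.93 (adjusted p = 0.036). Cyb5b was higher than control in Sar1B by 0.56 (adjusted p = 0.016).

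The saturated chains on which these enzymes act are built from citrate and acetate. Of 9 genes of that supply, all measured, 3 were lower and 0 higher against control (median -0.12), 5 lower and 0 higher against Sar1B (median -0.47) and 3 lower and 0 higher against Sar1A (median -0.39), beside 9.17%, 5.29% and 1.63% of all probe sets called lower. Acss2, which makes acetyl-CoA from acetate, had line means of 8.65 and 8.29 in Sar1B:H79G and 10.07 to 10.51 in the other lines, with log2 fold changes of -1.74 (SE 0.15, adjusted p = 0.0017) against control and -1.99 (SE 0.15, adjusted p = 0.0027) against Sar1B. Slc25a1, the mitochondrial citrate carrier, gave -1.01 (SE 0.07, adjusted p = 0.0011) and -1.03 (SE 0.07, adjusted p = 0.002). Acly, ATP citrate lyase, gave -0.49 (adjusted p = 0.03) and -0.65 (adjusted p = 0.022). Fasn, the fatty acid synthase itself, had line means of 12.23 and 12.38 in Sar1B:H79G, within the 12.17 to 12.52 of the other lines, and differed by 0.05 from control (95% confidence interval -0.19 to 0.29, adjusted p = 0.74) and by -0.14 from Sar1B (-0.38 to 0.10, adjusted p = 0.55).

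All 17 listed regulators of lipogenesis were measured, and 5 were lower and 1 higher in Sar1B:H79G than in control (median -0.07), with 6 lower against Sar1B (median -0.14) and 3 lower against Sar1A (median -0.18). Of all probe sets, 9.17% were lower and 13.2% higher against control, 5.29% lower against Sar1B and 1.63% lower against Sar1A. Insig1, which retains the SREBP escort Scap in the endoplasmic reticulum and is itself an SREBP target, had line means of 9.41 and 9.03 in Sar1B:H79G, 10.94 and 10.59 in control, 11.64 and 11.71 in Sar1B and 11.66 in Sar1A. Its log2 fold change in Sar1B:H79G was -1.54 (SE 0.16, adjusted p = 0.0031) against control and -2.45 (SE 0.16, adjusted p = 0.002) against Sar1B, and that in Sar1B against control 0.91 (SE 0.16, adjusted p = 0.029). Srebf1, which encodes SREBP-1, gave -0.67 (SE 0.12, adjusted p = 0.016) against control and -1.12 (SE 0.12, adjusted p = 0.0063) against Sar1B. The other falls against control were Nfyb, a subunit of nuclear factor Y, at -0.93 (adjusted p = 0.0052), Nr1h3, the liver X receptor alpha, at -0.63 (0.0028), and Srebf2, at -0.57 (0.0045), and the rise was Nr1h2, the liver X receptor beta, at 0.50 (0.03). Against Sar1B, in the same array series, Nfyb at -0.64 (adjusted p = 0.029) and Nr1h3 at -0.84 (0.0027) were called, whereas Srebf2 at -0.29 (0.06) and Nr1h2 at 0.36 (0.12) were not.

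Of 8 genes of the peroxisomal steps that finish docosahexaenoate, 5 were measured. Scp2, a carrier protein and thiolase of peroxisomes, was the 1 of 5 called in Sar1B:H79G, beside 9.17%, 5.29% and 1.63% of all probe sets called lower, with a log2 fold change in Sar1B:H79G of -0.76 (SE 0.07, adjusted p = 0.0019) against control, -0.45 (SE 0.07, adjusted p = 0.014) against Sar1B and -0.56 (SE 0.08, adjusted p = 0.027) against Sar1A. In Sar1B against control it gave -0.31 (adjusted p = 0.044), a call that was lost with 1 array of Sar1B line 2 left out. The lists were chosen with results of these arrays known, so their counts are no independent evidence of direction.

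**Figure D4:**
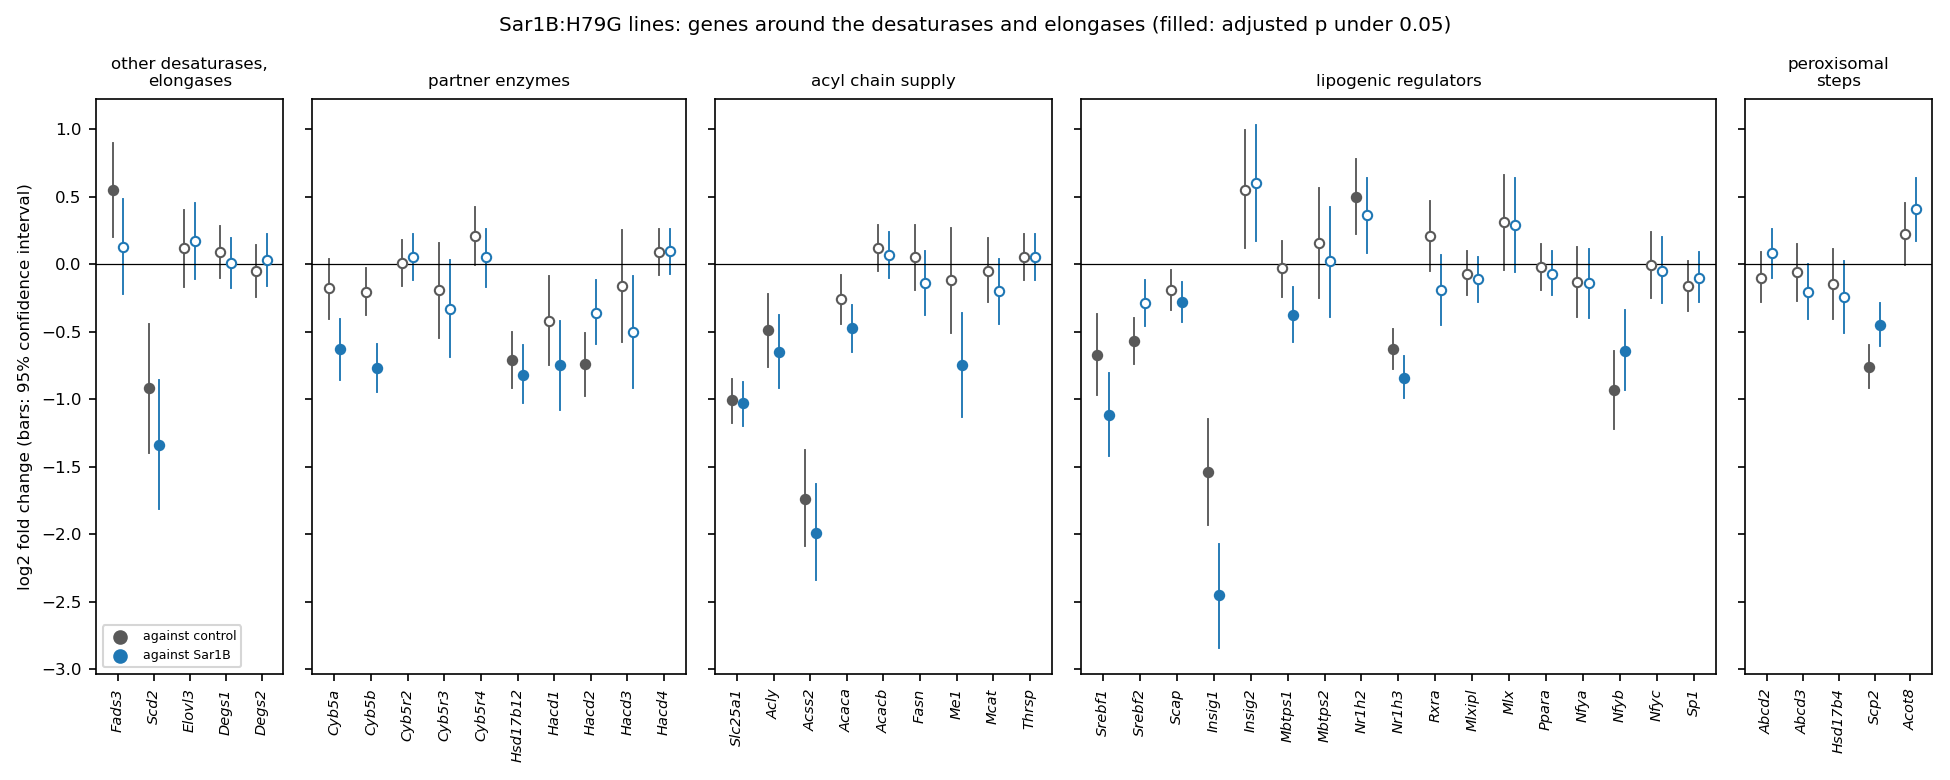
Log2 fold change (vertical axis) of the Sar1B:H79G lines against control and against Sar1B for the measured genes of 5 lists (horizontal axis), with bars for the 95% confidence interval and filled points for an adjusted p under 0.05. Insig1 reaches -2.45 and Acss2 -1.99 against Sar1B, while Fasn lies at 0.05 and -0.14.

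Hepatocyte markers moved along with the members in part. In Sar1B:H79G, 4 of 11 were lower than in control and 3 of 11 lower than in Sar1B, with none higher. Of all probe sets, 9.17% were lower and 13.2% higher against control, and 5.29% were lower against Sar1B. Among the lower markers were Fga at -1.94 and -2.13 (adjusted p = 0.0033 and 0.0047) and Hnf4a at -0.78 and -0.92 (0.0025 and 0.003). Apob was also lower, by -1.41 against control and -1.81 against Sar1B (adjusted p = 0.035 and 0.03). The mean of the 11 over a line was 11.27 and 11.31 in Sar1B:H79G, 11.65 and 12.04 in control, 11.74 and 11.93 in Sar1B and 11.76 in Sar1A. Of the 11 markers of other cell types, limma called 0 against control (2 at an unadjusted p under 0.05) and 0 against Sar1B (0 at an unadjusted p under 0.05). It called 22.3% and 8.63% of all probe sets in these comparisons. The part of the hepatocyte markers in the changes of the members was not tested.

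The genes whose profile over the 7 line means came closest to that of a member were sought for the 3 members that varied most, by the root mean square of the difference between centred profiles, over 9429 other genes brighter than the median probe set. Closest to Fads1 were Tspan12, a tetraspanin (0.268), Dhcr7, the last reductase of cholesterol synthesis (0.288), and Acat2, a cytosolic thiolase that makes acetoacetyl-CoA (0.298). Closest to Scd were Acss2 (0.178), Dhcr7 (0.202) and Insig1 (0.215), and Fads1 and Scd were 0.298 from each other. Elovl2 had other neighbours, Nmrk1, a nicotinamide riboside kinase (0.18), Sult1b1, a sulfotransferase (0.188), and C4bpb, a chain of the complement inhibitor C4-binding protein (0.207), and was 0.889 from Fads1 and 0.856 from Scd. Fads2, which changed by less, was 0.787 from Fads1, 0.668 from Scd and 0.478 from Elovl2. The distance depends on the size of the changes of both genes. By rank among the 9429 genes, Fads2 was number 173 for Fads1, 239 for Scd and 275 for Elovl2. These distances describe 7 lines of 4 groups in 2 array series and carry no test.

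**Figure D5:**
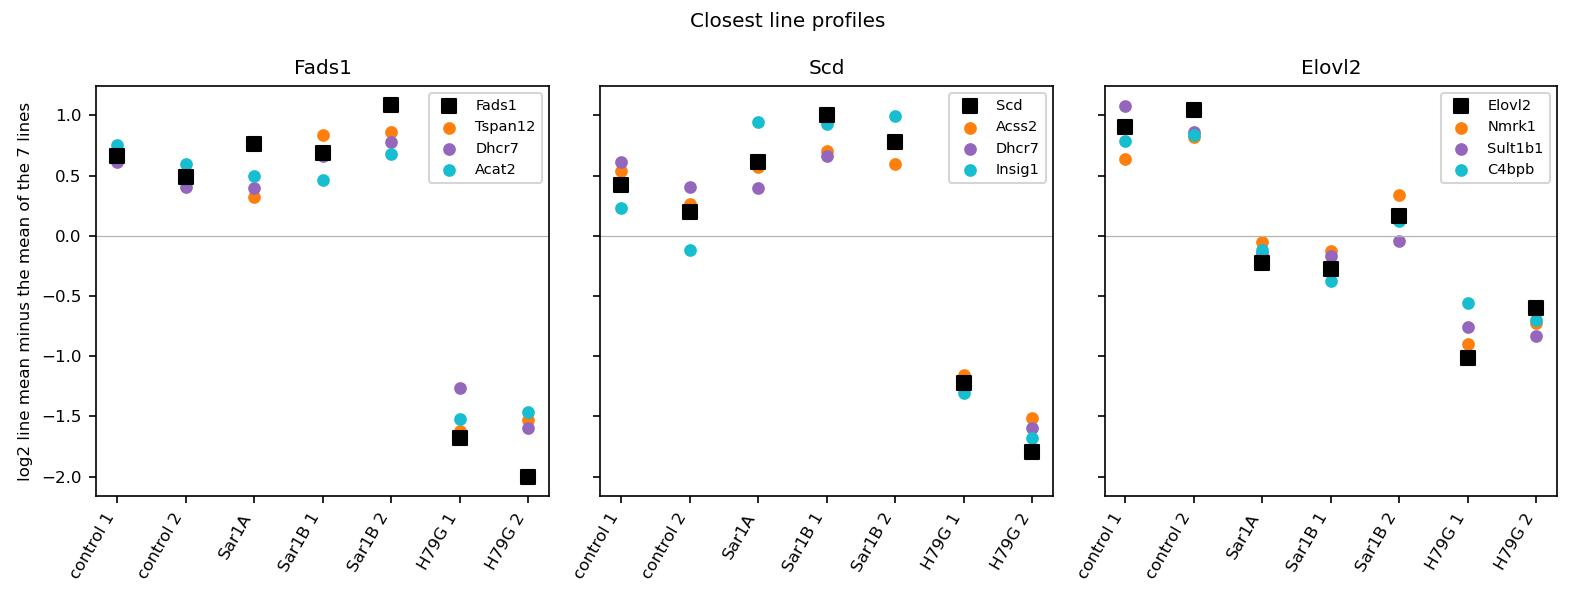
Log2 mean of each line minus the mean of the 7 lines (vertical axis) for Fads1, Scd and Elovl2 (squares) and the 3 genes closest to each (circles), by cell line (horizontal axis). The squares of Fads1 and Scd are lowest in both Sar1B:H79G lines and above 0 in the other 5 lines, whereas for Elovl2 the control lines are highest.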

How the data were processed

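Biotin-labelled cRNA made from the total RNA of the cultures was hybridised to 25 arrays. The authors normalised the signals by loess and MAS5 in CARMAweb, whose version is not given in the sources used here, and deposited 1 log2 value for each array and probe set, with no detection calls. That the base is 2 was inferred from the range, and array medians lay between 8.098 and 8.163. No genome build is involved in these values. The 57 array controls were left out, and genes were named from the platform annotation where a probe set carried 1 symbol. A gene outside the members was represented by its probe set with the highest mean. Line means were tested by limma 3.58.1 under R 4.3.3 (statmod 1.5.0 for the random block), with the single Sar1A line assumed to vary like the others. P-values measure the spread between lines, of which 1 or 2 per group limit the precision. Data were simulated for this design with 200 of 31042 probe sets made to differ by 1 (log2). The fit called 76.5% of these between Sar1B:H79G and control and 70.5% between Sar1A and control. In the real comparison of Sar1B:H79G with control 22.3% of all probe sets were called, so these shares need not hold for the data. Besides the members, the text names the 3 closest profiles of the 3 most variable members, up to 3 genes per list with the largest changes called in Sar1B:H79G against control, and Insig1, Srebf1 and Fasn, and further names were chosen after their values were seen. Members, lists and tests were chosen with earlier results of these data known. Alternatives treated arrays as replicates, or the line as a random block or its number as a fixed one, used quantile normalization, bright probe sets alone or a fit restricted to the groups in question, set eBayes to trend and robust, averaged the probe sets of a gene, left out each line, or applied SAM to single arrays, the test of the study.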

Additional observations from a re-analysis of the deposited data

Results flagged for a closer look

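Of 36 sets of arrays (9 probe sets in 4 groups), 3 held an array far from the rest of its group, where chance gives about 1 in 20. All were Sar1B arrays and the lowest of 8. A single array, the second of Sar1B line 2, carried all 3, so that they are not independent of each other. This array was the lowest of its line for 8 of the 9 probe sets. The share of all probe sets that were lowest on it is not given, so the count is not shown to be particular to the members. Scd read 11.67 on it, where the highest of the 8 read 12.28. Elovl1 read 10.35, with the next at 10.52, and the brighter Elovl5 probe set read 11.80, with the next at 12.01.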

How the results depend on the processing

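The falls of Fads1, Scd, Elovl2 and the brighter Elovl6 probe set against control, and of Fads1, Scd and both Elovl6 probe sets against Sar1B, passed the threshold under all alternatives run (16 against control, 15 or 14 against Sar1B). The number of called member probe sets depended more on the setting. With each array as a replicate it was 7 in Sar1B:H79G against control, 8 against Sar1B and 7 against Sar1A, where 52.3%, 31.8% and 23.2% of all probe sets were called, and 8 in Sar1B against control, 4 in Sar1A against control and 2 between Sar1A and Sar1B, where 42.2%, 36.2% and 10.3% were. With the line as a random block it was 5, 3 and 1 in the last 3, beside 26.4%, 19.3% and 3.84% of all. SAM gave 8 each in Sar1B:H79G, Sar1B and Sar1A against control, beside 67.4%, 55% and 52.3% of all. The fit of only the groups compared gave 0 in Sar1B:H79G against Sar1A (0% of all) and 2 in Sar1A against control (7.51%), and the trend and robust options gave 1 there (3.35%). Leaving out 1 line, which leaves 1 line in a group, changed it in each comparison of Sar1B:H79G and in Sar1B against control. It fell in all of these without either control line, and in Sar1B against control also without either Sar1B line. The number called over all probe sets fell in each of these fits too, so the fall was not particular to the members. The cause was not tested. Leaving the second array of Sar1B line 2 out of its line mean, an alternative chosen after seeing the data, changed no count of called members. With the line number as a replicate block, the number of called members was 5 in Sar1B:H79G against control, 6 against Sar1B and 4 in Sar1B against control. Of all probe sets, 22.6%, 8.45% and 6.46% were called there. The line numbers do not pair the lines, since deviations of same-numbered lines correlated by 0.0071, 0.192 and 0.0752.

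Signs turned only in differences that were not called. Quantile normalization turned the brighter Elovl5 probe set to -0.18 in Sar1B:H79G against control, and, in Sar1A against control, Fads1 to -0.012, Elovl1 to -0.001 and the brighter Elovl5 probe set to -0.024, and between Sar1A and Sar1B the dimmer Elovl5 probe set to 0.026. Without Sar1B:H79G line 1 the brighter Elovl5 probe set was -0.052 against control (0.136 without line 2) and Elovl1 0.000 against Sar1B (-0.14 without line 2), and Elovl1 against Sar1A ranged from -0.059 without line 2 to 0.081 without line 1. Without Sar1B line 1, Fads2 was 0.038 in Sar1B against control (-0.393 without line 2) and the brighter Elovl6 probe set -0.05 between Sar1A and Sar1B (0.133 without line 2), which was -0.117 with both probe sets averaged. Without Sar1B line 2, that comparison gave 0.082 for Fads1, 0.05 for Elovl2 and 0.12 for the dimmer Elovl5 probe set, and -0.323, -0.389 and -0.127 without line 1. No detection calls were used, so what lies near background is not known.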
